A study of Mus musculus with 28 samples.

Results

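The regions described here are stretches of mouse brain mRNA that carried an N6-methyladenosine (m6A) peak in the 5′ untranslated region (5′UTR), the part of an mRNA that precedes the start codon. The peaks of 14 m6A immunoprecipitation (IP) libraries were joined into 33937 regions wherever they shared at least 1 bp of the same strand. A region counted as a 5′UTR region when its midpoint lay in an annotated 5′UTR on its own strand, in no coding sequence or 3′UTR, and not within 200 nt of a stop codon. This held for 1415 regions, or 4.17% of all regions, and they lay in 1246 genes. A further 77 regions had their midpoint in a 5′UTR and were left out, 59 because another transcript has coding sequence there, 14 because the midpoint was also in a 3′UTR and 14 because it lay near a stop codon, with some meeting more than 1 of these. Of the 1415 regions, 50 were on the X chromosome, 0 were on the Y chromosome and 6 lay in the 5′UTR of more than 1 gene.

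The libraries came from newborn (P0) and 7-day-old (P7) hybrids of the mouse strains PWK/PhJ, called PWK, and C57BL/6J, called C57, so every animal carried 1 genome copy of each strain. In F1i hybrids the mother was PWK and the father C57, and in F1r hybrids the mother was C57 and the father PWK. The 6 cerebellum libraries were an F1i and an F1r library of P0 males, of P7 males and of P7 females, and the 8 cerebrum libraries were an F1i and an F1r library of males and of females at each age. P0 cerebellum of females was not among them. Each library is an extract of a whole tissue, so a weaker region in a tissue can mean fewer cells of a type or less RNA per cell, and these cannot be told apart. The labels do not say whether each library came from 1 animal, and p-values measure the spread between these libraries.

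Per the study's sample sheet the cerebellum and cerebrum libraries belonged to separate m6A-seq batches, so a difference between tissues and one between batches cannot be told apart in any comparison given here. The lists held between 16687 and 26208 peaks and 13768 to 24038 regions per library, and relative depth, with a mean of 1, ran from 0.560 to 1.57. Of 8 marker genes of the cerebrum fixed in a list, 8 had a peak in each cerebrum library and 3 to 5 in each cerebellum library. Of 8 cerebellar markers, 5 to 7 had a peak in the cerebellum libraries and 3 to 4 in the cerebrum libraries. A pair of libraries went against its labels. In P7 cerebrum the F1r library labelled male had 7 peaks on Xist, the RNA of the inactive X chromosome, with a fold enrichment of up to 252.7, and 0 peaks on Y-linked genes. The F1r library labelled female had 3 Xist peaks of at most 23.2-fold and 1 peak on a Y-linked gene. No comparison by sex is made for this reason, and main comparisons that use these libraries are also given without them.

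m6A is written into mRNA in the nucleus by a methyltransferase complex with METTL3 as its catalytic subunit, mostly at adenosines of the consensus DRACH, of which GGAC is the commonest core. Most m6A lies near stop codons and in 3′UTRs, and the minority in 5′UTRs has drawn interest because 5′UTR m6A has been linked to translation that does not depend on the cap. The antibody also binds N6,2′-O-dimethyladenosine (m6Am), which occurs at the nucleotide next to the cap, so IP peaks at the very start of a transcript can contain either modification. The fold enrichment of a peak is the pileup of IP fragments at its summit over the local background that the peak caller expected there.

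Sequences at the summits of a few members are given as examples, picked in part by whether GGAC lay near the summit. The first set is shown because these 5 members were called in all 14 libraries and ranked among the strongest, with GGAC (in capitals) within 25 nt of the summit of the strongest peak. Gpr162, Sox4, Zrsr1, Kcnd2 and Pcdh17 also ranked among the strongest and had no GGAC within 25 nt. All sequences are from the RefSeq GRCm38.p6 (mm10) genome and read 5′ to 3′ on the transcribed strand. The Ddx6 window is chr9:44607253-44607277 on the plus strand, the Dtx1 window chr5:120710587-120710611 on the minus strand, the St3gal2 window chr8:110957349-110957373 on the plus strand, the Tor1aip2 window chr1:156051560-156051584 on the plus strand and the Ntrk2 window chr13:58808681-58808705 on the plus strand.
Ddx6: ctgcaataaaGGACtcatattattg
Dtx1: tgcactgaggGGACtaagggattga
St3gal2: caaagaggggGGACcccggagctgg
Tor1aip2: caactggcttGGACtagaggcctgg
Ntrk2: ctcagcgtagGGACacgcactccga

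The second set is shown because these 4 members were called in all 6 cerebellum libraries and in 0 of 8 cerebrum libraries, and none of them had GGAC within 25 nt of the summit. Their windows are centred on the summit and lie on the minus strand at chr16:42340515-42340543 (Gap43), chr4:119294408-119294436 (Ybx1), chr2:73911234-73911262 (Atp5g3) and chr17:87446779-87446807 (Calm2). The regions at Gap43, Atp5g3 and Calm2 held an annotated exon end, so genomic sequence there can run past the exon.
Gap43: aaaggagagaaggcaggaagaaggcaggg
Ybx1: ccggcctagtcaccatcacacccgggagg
Atp5g3: cgcctcgggaggtaagcgaaggtaaacgg
Calm2: agcccttgcagcatggtgagtgcgtagct

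The third set is shown for comparison, as it holds members called in 0 of 6 cerebellum and all 8 cerebrum libraries with GGAC near the summit, at chr12:88794767-88794791 (Nrxn3) and chr1:59764374-59764398 (Bmpr2), both on the plus strand.
Nrxn3: ttcctggctaGGACgcatttgccgg
Bmpr2: tcttccccatGGACatgccttcaat

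GGAC was found within 25 nt of the summit in 639 of the 1415 members (45.2%), and any of 4 cores, GGAC itself or the related core GAAC, the core AGAC or the core AAAC, in 1104 (78.0%). Only the transcribed strand was searched, and the 4 cores cannot overlap at the same adenosine. Of 111441 windows of the same 51 nt tiled over all annotated 5′UTRs, 21.6% held GGAC and 53.7% held any of the 4. Regions in coding sequence held GGAC at 46.9% of their summits, and regions within 200 nt of a stop codon at 48.5%. For any of the 4 cores these shares were 87.4% and 89.8%, above that of the 5′UTR members. The 5′UTR members were the richest in G and C of all gene parts compared, with a median GC content of 61.4% in the 101 nt around the summit, against 53.5% in coding sequence, 51.5% near stop codons and 49.5% in the rest of the 3′UTR. These shares describe regions and carry no test. A match is a description of the sequence and not proof of a modified base.

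Counted peak by peak in each library, GGAC occurred within 25 nt of 51.4% ± 1.81 (SD, n = 14) of 5′UTR summits and in 20.5% ± 0.852 of windows shifted by 300 nt. The shift was made along the genome in both directions, so some of these windows lay outside the mRNA. The difference of 30.9 percentage points was present in 14 of 14 libraries (exact permutation by sign flips over libraries, two-sided, p = 0.000122, the smallest that 14 libraries allow). The libraries shared many regions and so recounted many of the same sequences. All p-values in this paragraph therefore measure the spread between libraries and not between independent sequences. Against coding summits of the same libraries the 5′UTR share was 1.18 points higher on average (same exact test, p = 0.239), and against summits near stop codons 0.775 points higher (same exact test, p = 0.547). Both averages hide opposite values in the tissues. In the 8 cerebrum libraries the 5′UTR share exceeded the coding share by 3.12 to 4.75 points, whereas in the 6 cerebellum libraries it lay between 6.42 points below (-6.42) and 1.68 points above it. The gap differed between the tissues by 6.13 points (exact permutation of tissue labels, two-sided, p = 0.000333, the smallest that 6 against 8 libraries allow), a test added after the data had been seen, and by 6.16 points without the P7 cerebrum F1r libraries (exact p = 0.00217). The 5′UTR shares themselves overlapped, at 48.7% to 54.3% in cerebellum and 49.5% to 53.2% in cerebrum, whereas the coding shares did not, at 52.3% to 57.1% and 45.8% to 48.8%. With all 4 cores the 5′UTR share was below the coding share by 3.79 points (a difference of -3.79, exact p = 0.000977) and below the stop codon share by 4.83 points (-4.83, exact p = 0.000488), so the direction depended on which form of the motif was counted.

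**Figure D1:**
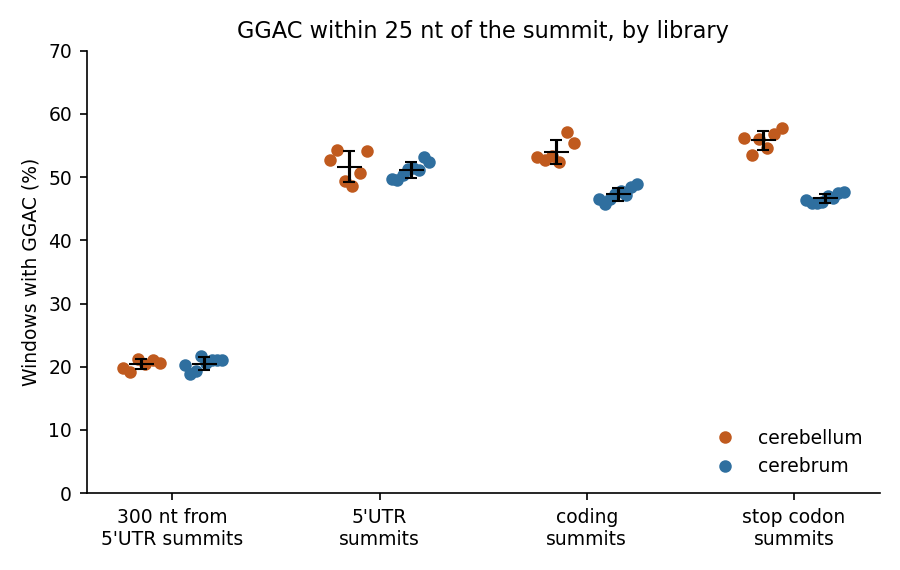
Share of peak summits with GGAC within 25 nt (y axis, percent) at 5′UTR summits, windows shifted by 300 nt, coding summits and stop codon summits, with 1 point per library, coloured by tissue. The 5′UTR points of all 14 libraries lie between 48.7% and 54.3%, all above the shifted windows (18.8% to 21.7%), and coding summits of cerebellum lie above those of cerebrum.

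The members were smaller and less recurrent than regions elsewhere in mRNA. Their median width was 168 nt (quartiles 97.0 and 298.5, range 80 to 1825), against 309 nt in coding sequence, 281 nt near stop codons and 260 nt in the rest of the 3′UTR. The median member was called in 5 of 14 libraries. A total of 247 members (17.5%) was called in all 14, compared with 39.6% of coding, 47.4% of stop codon and 37.1% of distal 3′UTR regions. Another 312 members (22.1%) were called in 1 library, against 9.42%, 7.69% and 12.4% of those parts. Width and recurrence moved together: the 247 members called everywhere had a median width of 444 nt and GGAC at 57.9% of their summits, and the 312 called in 1 library had a median width of 82 nt and GGAC at 40.1%. A merged region spans the peaks of every library that called it, so part of the link with width is built in. The comparison of widths with other gene parts carries the same limit. Narrow regions lie near the limit of what the peak caller reported, and the absence of a call is not a measurement of no methylation.

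Along the transcript, the summits lay a median of 248 nt from the annotated start (quartiles 114 and 471, over the 1368 members whose summit fell in the chosen transcript) and 195 nt before the start codon. In 58 members, 26 of them among the 247 called everywhere, the strongest summit lay past the start codon although the midpoint did not, so their folds were measured in coding sequence. Of the placed summits, 303 (22.2%) lay within 100 nt of the start and 94 within 50 nt. The members thus mapped for the most part inside long 5′UTRs. The genes with a member had a median 5′UTR of 432 nt, compared with 197 nt over the 9882 genes with any region in a transcript part and 156 nt over 20873 coding genes, a description that the rule itself favours because a longer 5′UTR has more room for a midpoint. Start codons lay inside 335 members (23.7%), exon ends inside 236 (16.7%) and the annotated transcript start inside 207 (14.6%). In 886 members (62.6%) a region of the gene outside the 5′UTR was called in all 14 libraries. In 227 the gene had no region in its coding sequence, near its stop codon or in its 3′UTR.

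The 10 members with the highest rank of −log10 q among those called in all 14 libraries belonged to Gpr162, Dtx1, Ddx6, St3gal2, Tor1aip2, Sox4, Ntrk2, Zrsr1, Kcnd2 and Pcdh17. Their fold enrichments are those of each library's own list and were higher in cerebrum for regions of every kind, by a median of 0.82 on the log2 scale over the 9215 regions called everywhere. Ddx6 encodes an RNA helicase of processing bodies that represses translation. Its region (chr9:44607123-44607418) had folds of 34.9 at the lowest, 44.0 at the median and 70.7 at the highest in cerebellum, and of 118, 156 and 194 in cerebrum. These were the highest cerebrum values of the 10. Dtx1, a ubiquitin ligase that acts on Notch signalling, had 30.6, 36.3 and 49.8 in cerebellum and 72.1, 84.2 and 118 in cerebrum. In both of these genes the tissues did not overlap.

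Among membrane proteins in the set, Ntrk2 (the BDNF receptor TrkB) had folds of 10.8, 13.5 and 16.4 in cerebellum and 30.1, 40.7 and 48.0 in cerebrum. Kcnd2, the potassium channel Kv4.2, carried the widest member of all, 1825 nt, and had 15.8, 22.0 and 28.4 in cerebellum and 74.8, 78.4 and 85.0 in cerebrum. The summits of Kcnd2 and Pcdh17, a protocadherin outside the gene clusters, had no GGAC within 25 nt. Pcdh17 had 26.3, 35.9 and 44.2 in cerebellum and 54.4, 65.6 and 83.6 in cerebrum. Gpr162, an orphan receptor, ranked highest in its lists on average, with 26.3, 28.6 and 31.9 in cerebellum and 87.9, 92.9 and 126.5 in cerebrum. Its midpoint lay in the 5′UTR, but its strongest summit was 863 nt from the start of a transcript with a 5′UTR of 684 nt, and thus in coding sequence. No region of Gpr162 was called at its 3′ end in any library. Zrsr1, a paternally expressed imprinted gene, had 27.9, 33.6 and 52.1 in cerebellum and 90.3, 96.7 and 113.6 in cerebrum. Sox4, a transcription factor of immature neurons, had 13.1, 18.6 and 23.8 and then 34.1, 45.3 and 64.2. St3gal2, a sialyltransferase of gangliosides, had 38.3, 47.4 and 64.2 and then 71.5, 89.0 and 99.8, and Tor1aip2, an activator of torsin ATPases, 31.2, 37.1 and 48.8 and then 76.2, 96.5 and 109. In each of the 10 the highest cerebellum value was below the lowest cerebrum value, and the shift over all regions went the same way.

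**Figure D2:**
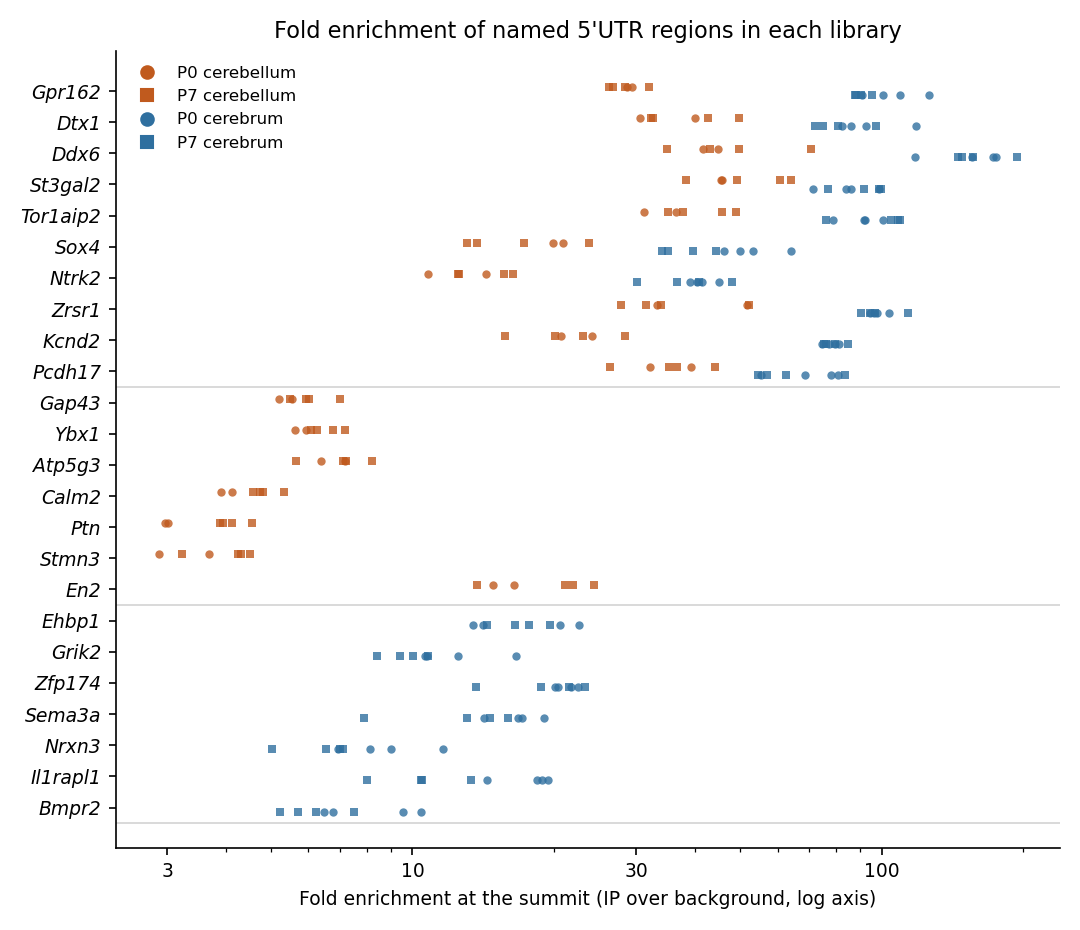
Fold enrichment at the summit (x axis, log scale, IP over local background as the authors' caller gave it) of named members, with 1 point per library, coloured by tissue and shaped by age. The members called everywhere reach 194 in Ddx6, while the members called in cerebellum alone sit between 2.88 and 8.20, apart from En2 (13.7 to 24.4).

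5′UTR regions took up a larger share of the regions of a library in cerebellum than in cerebrum. The share was 3.75% at the lowest, 4.07% at the median and 4.44% at the highest in the 6 cerebellum libraries, and 3.13%, 3.27% and 3.41% in the 8 cerebrum libraries. The tissues did not overlap. The means were 4.10% ± 0.226 (SD, n = 6) and 3.26% ± 0.0982 (SD, n = 8), so cerebrum was lower by 0.84 percentage points (a difference of -0.84, exact permutation of tissue labels, two-sided, p = 0.000333, the lowest p available). The difference was -0.827 without the P7 cerebrum F1r libraries (exact p = 0.00217) and -0.987 among P7 libraries (exact p = 0.0286, the smallest that 4 against 4 allow). In numbers, 523 to 820 members were called per library. Counted as a share of the regions in protein-coding transcript parts, which leaves out introns, non-coding exons and sequence outside genes, the difference was -0.587 points (exact p = 0.0147) and the tissues overlapped. On this scale the libraries of P0 lay at 4.55% and 5.02% in cerebellum and between 4.51% and 4.98% in cerebrum, while those of P7 lay at 4.77% to 5.39% and 3.88% to 4.17%, so the tissues were separate at P7 alone. Whether all libraries were made from the same kind of RNA selection is not settled by the sources used here, and its part in the share was not tested.

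Taken over all regions, the share differed less by age and by cross than by tissue. In cerebrum the mean was 3.32% ± 0.0807 at P0 and 3.21% ± 0.0897 at P7 (SD, n = 4 each), a difference of -0.11 points (two-sided exact permutation test, p = 0.171, with 0.0286 the smallest possible), or -0.128 without the P7 F1r libraries (exact p = 0.267). With protein-coding transcript parts as the denominator, P7 was lower by 0.721 points (-0.721, exact p = 0.0286), so the result depended on the denominator. The tissue difference on that scale (-0.587) covers both ages, whereas this value is of cerebrum alone, so the 2 are not ranked. In cerebellum the mean was 3.91% ± 0.230 at P0 (n = 2) and 4.19% ± 0.180 at P7 (SD, n = 4). The effect of age was more negative in cerebrum than in cerebellum by 0.39 points (-0.39). The value was -0.409 without the P7 cerebrum F1r libraries and -0.948 points with the other denominator. In that order, a two-sided exact permutation that shuffled tissue among libraries of the same age gave p = 0.403, p = 0.484 and p = 0.0352. Such shuffling also removes the difference between the tissues themselves, so these p-values do not test whether the effect of age differed by tissue. No conclusion is drawn from them. Between the crosses, F1r libraries exceeded their F1i partners of the same tissue, age and labelled sex by 0.03 ± 0.169 points (SD of 7 pairs) and did so in 4 of 7 of them (exact permutation by sign flips, two-sided, p = 0.656, with 0.0156 the smallest possible). Without the pairs that hold the P7 cerebrum F1r libraries the difference was 0.03 (exact p = 0.688).

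**Figure D3:**
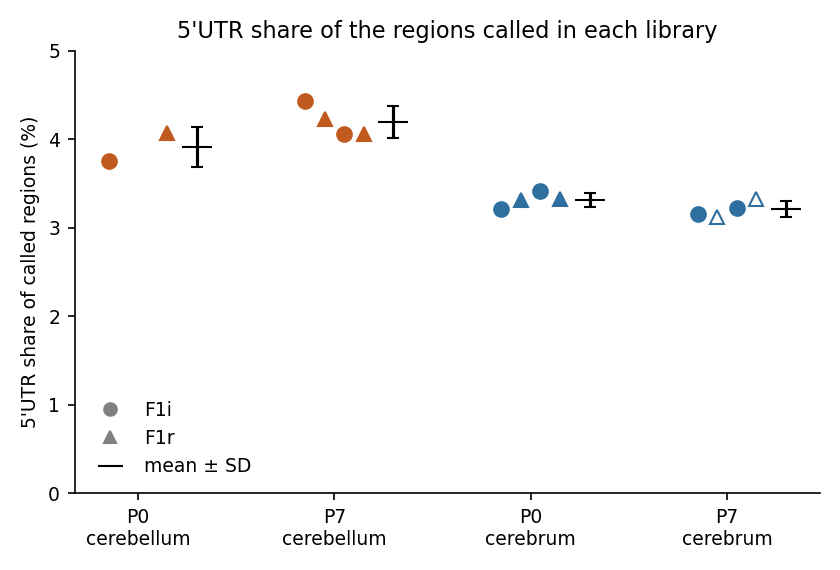
5′UTR regions as a share of all regions called in a library (y axis, percent, from 0), with 1 point per library by tissue and age, and the mean with its SD. All cerebellum libraries (3.75% to 4.44%) lie above all cerebrum libraries (3.13% to 3.41%).

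Region by region, presence was compared between tissues with Fisher's exact test over 24722 regions present in at least 1 library and missing from another, 1168 of them members. By this test, with Benjamini-Hochberg adjustment over all of these regions at 0.05, 70 members (5.99% of those tested) were called more often in cerebellum, against a background of 1.87% over all regions. In the other direction 68 members (5.82%) were called more often in cerebrum, against 7.78% over all regions. The members were thus, with all libraries and full lists, the gene part with calls in about equal number both ways. In coding sequence 2.60% of regions were called more often in cerebellum and 12.2% in cerebrum, near stop codons 2.30% and 9.07%, and in the distal 3′UTR 2.07% and 7.92%. No test was run between gene parts. Without the P7 cerebrum F1r libraries the counts were 58 and 41 of 1149 members tested, against 252 and 1172 of 24083 regions. With lists cut to equal size they were 81 and 55 of 943, against 757 and 1124 of 18103 regions. With all libraries and full lists, 463 and 1923 of the 24722 regions were called. Leaving out any 1 of the 6 cerebellum libraries brought the cerebrum count to between 36 and 45, and to between 1036 and 1202 over all regions.

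**Figure D4:**
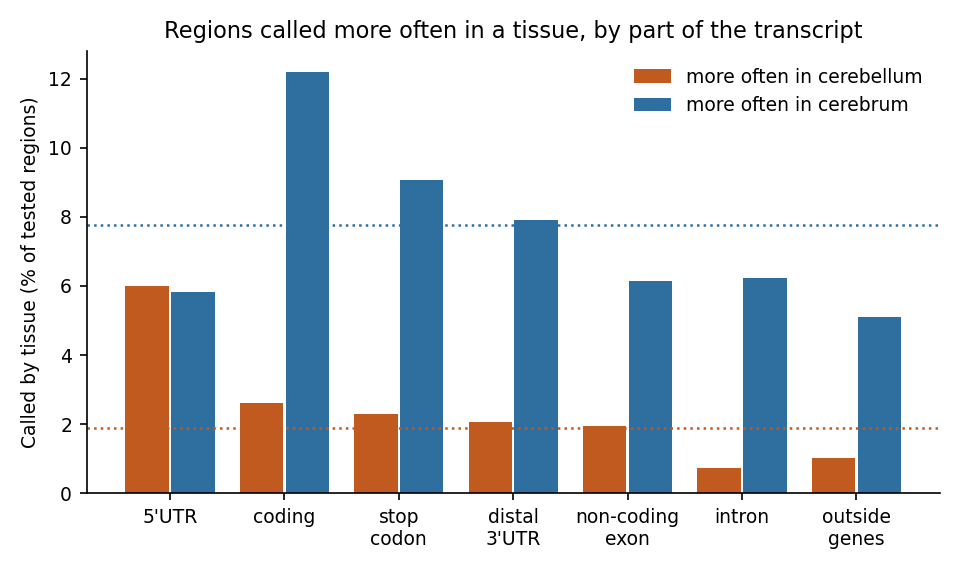
Regions called more often in cerebellum or in cerebrum by Fisher's exact test (adjusted p at most 0.05), as a percent of the regions tested in each part of the transcript or genome (y axis). The 5′UTR bars are 5.99% and 5.82%, while coding sequence has 2.60% and 12.2%.

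The members called more often in cerebellum and in cerebrum differed in kind, and in width and GC content the regions of other gene parts differed the same way. The 70 cerebellum members had a median width of 111.5 nt, a summit a median of 103 nt from the annotated start and a GC content of 68.3%, and 30 of the 61 with a placed summit (49.2%) lay within 100 nt of the start. The 68 cerebrum members had a median width of 235 nt, a summit 402.5 nt from the start and a GC content of 53.5%, and 4 of 66 (6.06%) lay within 100 nt. GGAC was within 25 nt of the summit in 24 of the 70 (34.3%) and in 30 of the 68 (44.1%), and any of the 4 cores in 41 (58.6%) and 60 (88.2%). The annotated transcript start lay inside 21 of the cerebellum members (30.0%), and 28 held an exon end, compared with 7 (10.3%) and 11 (16.2%) of the cerebrum members. In 35 of the 70 the gene had no region in a transcript part other than the 5′UTR, as against 3 of the 68. The annotated start was an A in 38.6% of the cerebellum members, compared with 27.6% of all members. Coding regions called more often in cerebellum had a median width of 188.5 nt and 56.4% GC, against 266 nt and 47.5% for those in cerebrum. Near stop codons the values were 189 nt and 56.4%, against 199 nt and 44.55%. GGAC was at 61.1% and 28.5% of the summits near stop codons, and at 35.9% and 36.4% in coding sequence. All of these are descriptions of members and regions that the presence test selected, without a test of their own. Width also depends on how many libraries called a region, since a merged region spans all of their peaks.

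The background under the peaks moved with the tissue as well. The local background at the summit, divided by the lowest background of the same list, had a median of 27.6 (quartiles 10.8 and 73.7) in the 70 cerebellum members, 2.90 in the 68 cerebrum members and 3.37 over all members. Coding regions called more often in cerebellum had a median of 10.6, against 2.31 over all coding regions. Background lay above the floor of the list for 91.8% to 99.3% of the members called in a cerebellum library and 75.1% to 89.0% in a cerebrum library. The median fold of the members also differed between lists, with 5.90 to 7.204 in cerebellum and 9.73 to 11.2 in cerebrum. A peak on a strongly covered transcript can pass the caller with a small fold, and its part in the 70 calls was not tested.

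**Figure D5:**
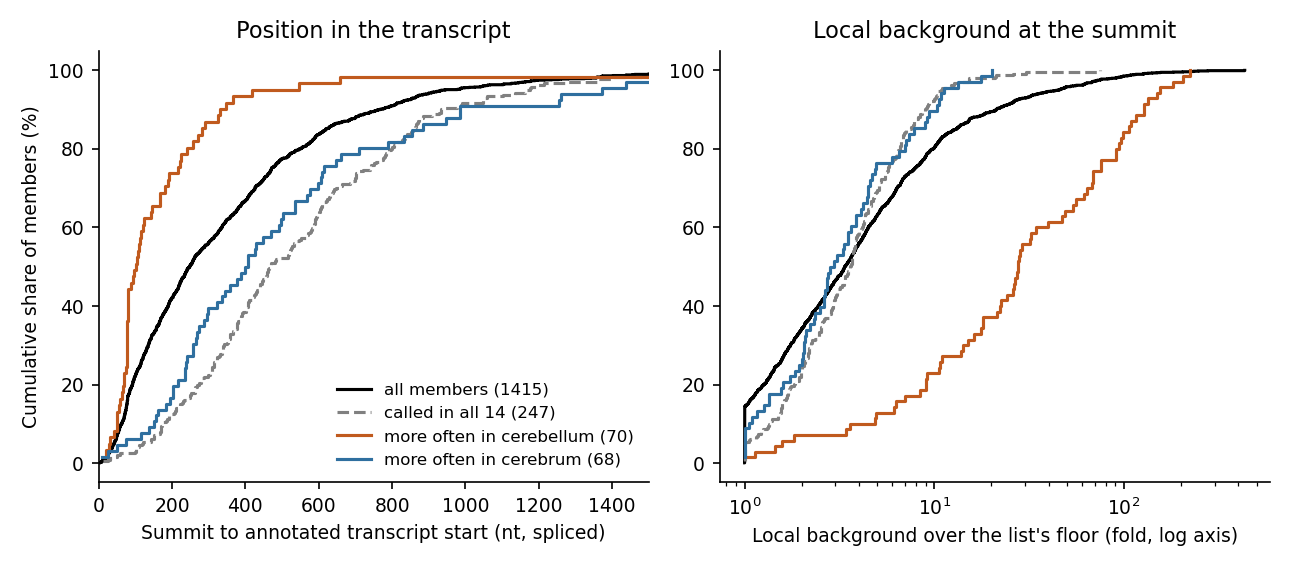
Left, cumulative share of members (y axis, percent) by the distance of the summit from the annotated transcript start (x axis, nt along the spliced transcript). Right, the same by local background over the floor of the list (x axis, log scale). Lines stand for all members, those called in all 14 libraries and those called more often in either tissue; the cerebellum line is farthest to the left in position (median 103 nt) and farthest to the right in background (median 27.6).

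Of the members with 6 of 6 cerebellum and 0 of 8 cerebrum libraries there were 56 (236 among all regions), all with an adjusted p of 0.0066 in the Fisher test. Among those with the highest rank in their lists were Gap43, Ybx1, Atp5g3, Calm2, Ptn, Stmn3 and En2. In the first 6 of these the gene had no region in a transcript part other than the 5′UTR in any library. Gap43, a growth cone protein of extending axons (chr16:42340418-42340607, minus strand), had folds of 5.20 at the lowest, 5.74 at the median and 7.01 at the highest over a background 115 times the floor. Ybx1, which encodes a cold shock domain protein that packages mRNA, had 5.62, 6.18 and 7.199 over 109 times the floor. Atp5g3, the c subunit of the mitochondrial ATP synthase, had 5.66, 7.14 and 8.20. All 3 had small folds on high backgrounds.

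Calm2, one of the calmodulin genes, had folds of 3.91, 4.66 and 5.34, and its summit was 2 nt past the first base of the start codon. Ptn, the secreted growth factor pleiotrophin, had 2.97, 3.92 and 4.54 over the highest background of these, 204 times the floor. Stmn3, a microtubule-destabilising stathmin, had 2.88, 3.97 and 4.50. En2 stood apart from these 6. It encodes a homeodomain factor of the developing cerebellum and midbrain, and is 1 of the cerebellar markers used to check the tissues. Its region (chr5:28166156-28166841, plus strand) was 686 nt wide, had folds of 13.7, 18.8 and 24.4 over a background 9.01 times the floor, and was accompanied by a 3′ end region of the same gene called in 6 libraries. Among the other members of this direction were Vamp2, a SNARE of synaptic vesicles, the G protein subunits Gnas and Gnao1 and the imprinted gene Snrpn, chosen here after their values were seen.

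In the other direction 36 members were called in 0 of 6 cerebellum and all 8 cerebrum libraries (1012 among all regions), with the same adjusted p of 0.0066. Those with the highest rank included Ehbp1, Grik2, Zfp174, Sema3a, Nrxn3, Il1rapl1 and Bmpr2, and each of these genes had other regions, called in 11 to 14 libraries. Grik2, a kainate receptor subunit (chr10:49783342-49783573, minus strand), had folds of 8.41, 10.7 and 16.6 in cerebrum. Nrxn3, a presynaptic adhesion molecule, had 5.02, 7.06 and 11.6. Il1rapl1, an X-linked organiser of synapses, had 8.00, 13.9 and 19.5.

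Ehbp1, which links endocytic vesicles to actin, had the highest rank in cerebrum lists, with 13.5, 17.2 and 22.7. Sema3a, a secreted repellent of axons, had 7.89, 15.3 and 19.1. Zfp174, a zinc finger protein, had 13.6, 21.03 and 23.4 over a background at the floor, and Bmpr2, a receptor for bone morphogenetic proteins, had 5.22, 6.63 and 10.4. The calls of Zfp174 and of Ptn did not pass the test when peaks had to cover 50% of the region (adjusted p = 0.296 and 0.439 by Fisher's test). None of the genes named here in either direction passed among P7 libraries alone, where the best possible unadjusted p is 0.0286 and the adjusted p was 0.1925, although each region was still in all libraries of the one tissue and in 0 of the other.

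Some genes held several members, side by side in a 5′UTR or in 5′UTRs far apart. In 142 genes there were 2 or more, 311 members in all, and at most 4 in a gene. Slit2, a secreted guidance cue for axons, had 4 within its 5′UTR of 1902 nt, and they were picked out after their values were seen. The member at chr5:47983641-47983858 was called in 8 cerebrum and 0 cerebellum libraries, with folds of 13.4, 15.8, 11.1 and 10.8 at P0 and 7.48, 6.81, 12.4 and 11.3 at P7. The next, 984 nt from the start, was called in 8 cerebrum libraries and 1 cerebellum library (adjusted p = 0.0397, Fisher), and the last, 1437 nt from the start, in 8 and 0. The first of the 4, at 254 nt, was called in 8 and 2 (adjusted p = 0.1002 in the same test) and did not pass. All 4 regions of Slit2 therefore appeared mainly in cerebrum, as separate peaks along the same leader. In 6 genes a member was called in all 14 libraries and another by tissue, and in 0 genes were there calls in opposite directions. Such members share a gene and not always a transcript start. Nrxn3, for example, had 1 member in all libraries (medians of 12.8 in cerebellum and 34.2 in cerebrum), another in 5 of 6 and 8 of 8, and the third in 0 of 6 and 8 of 8.

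By age, presence was compared in cerebrum, with 4 libraries at each age, and not in cerebellum, with 2 and 4. A total of 56 members (3.96%) was called in all 4 P0 and in 0 of 4 P7 cerebrum libraries, against 4.27% of all regions, and 3 members (0.212%) in all P7 and 0 P0 libraries, against 0.442%. Fisher's test of the presence of a single region cannot pass a correction with 4 against 4 libraries, so none was made. The P0 libraries also had longer lists, and with lists cut to the same size the counts were 16 and 6. Without the F1r libraries whose sex labels were in doubt at P7 they were 95 and 4. The members called at P0 included Gria2, a subunit of AMPA receptors, with folds of 4.60, 3.77, 4.15 and 3.74. Maml3, a coactivator of Notch, had 8.17, 13.2, 10.3 and 7.38, and Adarb2, a homologue of RNA-editing enzymes, 6.84, 9.09, 13.9 and 7.82. Meis2, a homeobox gene, had 6.44, 6.73, 8.19 and 5.66. Lhx1, a LIM homeobox gene, had 5.71, 14.9, 13.0 and 10.9 at P0 and was also called in all 6 cerebellum libraries.

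The 3 members called in all P7 and 0 P0 cerebrum libraries belonged to Chn1, Kcnj4 and Epha10. Chn1 encodes a Rac GTPase-activating protein of axon guidance and had folds of 19.7, 11.4, 19.5 and 17.1, and it was called in 3 cerebellum libraries as well. Kcnj4, an inwardly rectifying potassium channel, had 5.06, 10.0, 4.80 and 8.51. Epha10, an ephrin receptor, had 5.25, 7.15, 7.39 and 9.11. By cross, 0 members were called in F1r libraries alone in at least 5 of 7 pairs with the reverse in none, against 0.0354% of all regions, and 0 in F1i libraries alone, against 0.0295%. Such small backgrounds leave 0 as no result about the members, and with lists of equal size 2 were called in F1r alone.

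For the 247 members called in all 14 libraries the fold itself was compared, after each library was centred on its median over the 9215 regions called everywhere, which removes the shift of 0.82 between the tissues. In a limma fit with age as a covariate, 85 members (34.4%) had a higher fold in cerebrum at an adjusted p of 0.05, against a background of 32.4%, and 62 (25.1%) a lower fold, against 27.2%. The median difference over the members was 0.04 on the log2 scale. The members therefore shifted with tissue about as often as other regions. Without centring the counts were 194 and 5. Without the P7 cerebrum F1r libraries they were 80 and 51, and with P7 libraries alone they stayed within 1.5 times of those given.

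The strongest differences were in opposite directions in a few genes. Adcy5, an adenylyl cyclase of the striatum (chr16:35155563-35155940), had folds of 16.0, 21.0 and 25.3 in cerebellum and of 4.73, 5.66 and 9.47 in cerebrum, and its centred log2 difference was -2.53 ± 0.16 (SE, limma, adjusted p = 8.21e-11). Its tissues did not overlap, and it ran against the shift of all regions. The same held for Znrf1, a ubiquitin ligase with a summit 11 nt from the annotated start, at -1.86 ± 0.14 (adjusted p = 8.73e-10), with folds of 9.61, 10.4 and 13.2 against 4.18, 5.17 and 7.25. Adcy5 had another member called in all 14 libraries, so its values above are not those of its whole 5′UTR. In cerebrum the centred mean of that other member was -0.01 at P0 and -0.16 at P7, against -1.79 and -1.89 for the first. Its log2 ratio to the 3′ end of the gene, a measure described below, differed between the tissues by 0.15 ± 0.18 (SE, limma, adjusted p = 0.501). Maf, a bZIP transcription factor, fell by 1.60, Gpat4, an acyltransferase of lipid synthesis, by 1.24 and D1Ertd622e by 1.32. In the other direction Kbtbd2, a Kelch adaptor of a ubiquitin ligase, had folds of 4.94, 8.57 and 10.1 in cerebellum and 36.3, 50.95 and 83.5 in cerebrum, a log2 difference of 1.90 ± 0.16 (limma, adjusted p = 3.33e-09), with its strongest summit past the start codon (707 nt from the start, 5′UTR of 643 nt). Homer1, a scaffold of the postsynaptic density, was higher by 1.66, Stim1, a calcium sensor of the endoplasmic reticulum, by 1.32, Asic2, an acid-sensing ion channel, by 1.18 and Robo1, the receptor of Slit proteins, by 1.11. All of the centred differences in this paragraph passed the same limma test and kept their direction and call under every alternative run for them.

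Between P0 and P7 cerebrum 9 of the 247 members had a higher fold at P7 (limma with cross as a covariate, background 7.61% of regions) and 15 a lower one (background 5.49%). Trim27, a ubiquitin ligase, had folds of 31.3, 37.1, 33.4 and 20.4 at P0 and of 8.17, 6.64, 6.25 and 6.43 at P7, a centred difference of -1.90 ± 0.18 (adjusted p = 9.43e-06, limma). Myc, the proto-oncogene of proliferating cells, had 46.9, 48.8, 44.8 and 34.7 at P0 and 17.8, 14.96, 18.4 and 15.9 at P7, a difference of -1.16 ± 0.16 (adjusted p = 0.000208, limma). In both genes the ages did not overlap. Fzd8, a receptor of Wnt ligands, fell by 1.25, Ubl5, a ubiquitin-like protein of splicing, by 1.07 and a second Maml3 member by 1.00. Gpr61, an orphan receptor, rose by 1.18 ± 0.16 (adjusted p = 0.000120, limma), with 14, 17.1, 18.8 and 18.7 at P0 and 33.8, 39.8, 26.0 and 33.8 at P7.

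Caskin2, Htr2a, Gpr22 and Ppp1r16a also passed, with differences of 0.75, 0.69, 0.74 and 0.75, but lost the call without centring (adjusted p = 0.0681, 0.0927, 0.0736 and 0.0645 in limma). Without the P7 cerebrum F1r libraries 1 member passed as higher and 6 as lower, and among those named Maml3 lost its call (-0.77, adjusted p = 0.0936, limma) along with the same 4. Without centring the counts were 1 and 50, since all regions shifted by -0.22 with age. Leaving out the second P0 cerebrum library brought the counts to 3 and 9, and leaving out the fourth P7 cerebrum library brought the count of higher members to 4. Between F1r and F1i, 0 members and 0 of all regions (0%) passed limma with the matched pair in the model, whereas 21 members and 538 of all regions had an unadjusted p under 0.05.

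A fold can differ between tissues for all of a transcript or for the 5′UTR alone. In 126 genes with a member and a region at the 3′ end that were both called in all 14 libraries, the log2 ratio of the 5′UTR fold to that of the strongest 3′ end region was compared. The median ratio was -0.69 in cerebellum and -0.48 in cerebrum, and the 5′UTR had the higher fold in 37 and 46 of the genes. The same ratio for coding regions had medians of -0.23 and -0.13 over 943 genes. In limma, with adjustment over these 1069 ratios, 35 genes (27.8%) had a higher 5′UTR to 3′ end ratio in cerebrum, against 30.3% over all ratios, and 36 (28.6%) a lower one, against 25.1%.

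Maf had the largest fall, from a mean log2 ratio of -0.55 ± 0.59 in cerebellum to -3.36 ± 0.22 in cerebrum (SD, n = 6 and 8), a difference of -2.77 ± 0.21 (SE, limma, adjusted p = 1.87e-11). 9330159F19Rik fell by 2.04, Znrf1 by 2.01, D1Ertd622e by 1.54 and Gpat4 by 1.47, so Maf, Znrf1, D1Ertd622e and Gpat4 were lower in cerebrum by both measures, which share the same 5′UTR folds. Arhgef26, a guanine nucleotide exchange factor, rose from -1.46 ± 0.64 to 0.35 ± 0.38, a difference of 1.82 ± 0.24 (adjusted p = 2.95e-07, limma). Sox4 rose by 1.35, Snx33, a sorting nexin, by 1.15, Jun, the AP-1 transcription factor, by 1.13 and Bcl2, the inhibitor of apoptosis, by 1.00. The strongest summits of Bcl2 (1775 nt from the start, 5′UTR of 1394 nt) and Maf (943 nt, 5′UTR of 931 nt) lay past the start codon. Each of these calls passed with any 1 library left out. Among P7 libraries alone 23 genes were higher and 32 lower, and without the P7 cerebrum F1r libraries 31 and 34.

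Gene groups were described with lists fixed with earlier results of these data known, and none is independent evidence. Over all 21875 coding genes, 5.69% had a member, but only 9972 of them had a region of any kind. All 26 transcription factors and all 14 early-response genes had a region. For genes with a region, in these and the other lists, 1244 of 9972 is the nearer baseline. Of 16 writers, erasers and readers of m6A, 14 had a region of any kind. A member was found in 3 of these genes, none of them called by tissue: the demethylase Alkbh5 in 13 libraries, the writer subunit Rbm15b in 10 and the nuclear reader Ythdc1 in 2. Of 18 heat shock and stress genes, 13 had a region of any kind. Among them Dnajb1, Dnajb6 and Atf5 had a member, each in 3 or 4 cerebellum libraries and 0 cerebrum libraries, and 0 passed the tissue test. Of 14 early-response genes Myc and Jun had a member in all 14 libraries, Myc had another in 1 library, and Fosb and Jund had 1 each in a single library. Cytosolic ribosomal protein genes had a member in 0 of 85, but only 6 of them had a region of any kind, whereas 1244 of the 9972 coding genes with a region had a member, so the 0 is no result about 5′UTRs.

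Of 25 axon growth and cytoskeleton genes, 17 had a region of any kind and 7 a member. Of these members 4 (Gap43, Basp1, Mapt and Stmn3) were called more often in cerebellum and 0 in cerebrum. Over all members tested the shares were 5.99% and 5.82%, and over all regions 1.87% and 7.78%, against which this and the next counts are to be read. The 3 others, of Dpysl3, Marcksl1 and Tmsb4x, were found in 1 to 3 cerebellum libraries alone. Oxidative phosphorylation genes had a member in 7 of 97, of which only 27 had a region of any kind. Atp5g1, Atp5j and Atp5g3, all subunits of the ATP synthase, were called in 6 of 6 cerebellum and 0 of 8 cerebrum libraries, whereas Atp5c1, another subunit of that enzyme, was called in 2 cerebellum libraries and in all 4 P0 but 0 P7 libraries of cerebrum (adjusted p = 0.841, Fisher), and Ndufa13, a subunit of complex I, had a member in all 14. Translation factors had a member in 2 of 28 genes (17 with a region of any kind), Ybx1 and Eif4g2, both called in cerebellum. Transcription factors of neural development were the list with the highest share, 15 of 26 genes (57.7%) with 21 members, of which 3 were called in all libraries (Pou3f3, Sox4 and Zic1) and 1 was called by tissue (En2). Pax6, a factor of neural progenitors, had 4 members, in 1 or 2 cerebellum libraries each.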

How the data were processed

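m6A-seq of cerebellum and cerebrum of C57 × PWK hybrids was analysed through the peak lists of 14 IP libraries. The 14 inputs were not analysed here on their own. Per the submitters' processing notes and the study's methods, reads were processed with fastp 0.21.0 and aligned with HISAT2 2.1.0 to mm10 in which strain differences were masked, and peaks were called per library and strand with MACS2 2.1.2. The notes also name featureCounts 1.6.0. The labels give polyA RNA, but the methods also describe depletion of ribosomal RNA and do not say for which samples. Which library was the control of a call is not given in the sources used here. The deposited lists hold a score (unused), the fold enrichment at the summit, which is a ratio over local background, and the −log10 p and −log10 q of each peak as the authors' caller gave them. The lowest −log10 q of a list was 1.30 to 1.41. These values belong to their own list.

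All 280967 peaks were merged by strand, and gene parts were taken from GENCODE release M21 (basic), while the authors used release 26 for alignment. The lists used here hold no read counts. Whole-number pileups (within 0.05) and local backgrounds were recovered from the fold and −log10 p for 94.8% of the peaks. Relative depth is the lowest recurrent background of a list, summed over strands. Absolute depth is unknown, so no counting intervals are given. The similarity of libraries (shared over all regions) was at most 0.811, so none was counted as a duplicate.

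Presence was tested with Fisher's exact test, library shares with exact permutation tests, and log2 folds with limma 3.58.1 (R 4.3.3), on libraries centred on their median, all over the regions of every gene part. Python 3.11.15, scipy 1.17.1 and statsmodels 0.14.6 were used, and scripts were tested on simulated data. F1i and F1r libraries were paired by tissue, age and labelled sex, as the study matched them. Named are the 10 members called everywhere with the highest mean rank of −log10 q, up to 8 per direction by tissue, 5 by age, 4 by cross and 5 per limma fit, and the members of gene lists. Genes named outside this rule are marked as chosen after their values were seen. The members and lists were chosen with earlier results of these data known. Some members that this rule selects are not reported here.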

Additional observations from a re-analysis of the deposited data

Results flagged for a closer look

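GGAC was more frequent at 5′UTR than at coding summits in the 8 cerebrum libraries and less frequent or about equal in the 6 cerebellum libraries, and this gap differed between the tissues by 6.13 percentage points (two-sided exact permutation test, p = 0.000333). The coding shares carried the gap, at 52.3% to 57.1% in cerebellum and 45.8% to 48.8% in cerebrum, while the 5′UTR shares overlapped at 48.7% to 54.3% and 49.5% to 53.2%. Tissue and IP batch cannot be told apart here, and local background also differed between the tissues, whose part was not tested. The libraries recounted many of the same sequences, so the p-value measures the spread between libraries and not between independent sequences.

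Fold enrichments of named members were searched for a library that stood apart from its group, in 240 sets of values, of which chance flags about 1 in 20, and 14 sets had one. In cerebellum Stim1 was low in the P7 female F1r library, at 4.79 against a median of 7.18, both over all cerebellum libraries and over the 4 of P7. In P7 cerebellum Arhgef26 was low in the same library (6.00 against 11.2), Stmn3 in the male F1i library (3.23 against 4.28) and Bcl2 in the male F1r library (12.4 against 17.1), whereas Gpr61 was high in the female F1i library (29.1 against 12.2).

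In cerebrum the P7 female F1i library was low in Zfp174 (13.6 against 21.04) and Sema3a (7.89 against 15.3) over all 8 libraries, and in Tor1aip2 (76.2 against 106.5) and Fzd8 (10.2 against 12.8) over the 4 of P7. The P7 female F1r library, whose sex label is in doubt, was high in Maf (7.33 against 6.22) and Caskin2 (63.6 against 55.3). The P0 male F1r library was low in Caskin2 over all cerebrum libraries (26.1 against 52.3) and high in Homer1 over those of P0 (74.5 against 45.7).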

How the results depend on the processing

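Of the values that answer a comparison, 294 computed under alternatives stayed the same, 2 gained the threshold, 27 moved and 4 reversed. A test stayed the same if it kept its direction and side of the threshold. A count stayed the same if it was within 1.5 times of the main count, and moved otherwise. The reversals were the share difference of F1r minus F1i when peaks had to cover 50% of a region (-0.00487, p = 1 by the exact test) and without pair 1, and GGAC against coding (-3.79) and stop codon summits (-4.83) when any of 4 cores counted. The matched pairs changed no call: with no replicate block the share difference was 0.03 (exact permutation test, p = 0.901) and 0 members passed limma. The denominator of protein-coding transcript parts gave -0.721 for age and -0.948 for its interaction with tissue. Both gained the threshold, but the p-value used for the interaction does not test it, as said above. Lists of equal size gave 16 members for P0, 6 for P7 and 2 for F1r alone. Without the P7 cerebrum F1r libraries 41 members were called in cerebrum, 95 in P0 alone (an alternative chosen after seeing the data), and 1 and 6 were higher and lower at P7 in limma (also chosen after seeing the data). P7 libraries alone gave 0 members in either tissue and 23 genes with a higher ratio. Without centring limma gave 194 and 5 members by tissue and 1 and 50 by age, and with regions of at least 10 libraries 115 lower by tissue, and 17 and 26 by age. 

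Leaving out 1 library at a time gave share differences of -0.908 to -0.771 by tissue, -0.149 to -0.0776 by age, -0.0196 to 0.0700 by cross (without a pair) and -0.553 to -0.227 for the interaction. GGAC differences were 30.6 to 31.1 against shifted windows, 0.906 to 1.77 against coding and 0.392 to 1.35 against stop codon summits. Counts were 56 to 73 members called in cerebellum and 36 to 81 in cerebrum, 57 to 74 for P0 and 3 to 5 for P7 alone (5 without the third P7 cerebrum library), and 0 to 0 by cross in either direction. In limma they were 82 to 88 and 56 to 63 by tissue, 3 to 7 and 9 to 13 by age, and 30 to 35 and 30 to 38 for the ratio. The lists hold peaks and no reads, so the absence of a region is an absence of a call, and narrow members with few fragments are the least certain.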
